A study of Bos taurus with 54 samples.

Results

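The glucocorticoid receptor gene NR3C1 and 8 genes that its protein is known to regulate were followed in calf blood before and after heat stress. The members were chosen by gene symbol as NR3C1, FKBP5, TSC22D3, ZBTB16, SGK1, DUSP1, KLF9, DDIT4 and ANXA1, and all 9 were found among the 32637 genes listed in each library. Whole blood came from 15 Holstein male calves kept in climate-controlled rooms, and red cells were lysed before RNA was extracted from the remaining cells. The thermoneutral control samples were drawn at 6:30, before heat exposure, and the heat stress samples at 18:30, at the end of 12 h of heat, so heat and time of day cannot be told apart. The 3′ ends of transcripts were sequenced in 54 libraries, 27 per kit, made either by Takara's SMART-Seq v4 3′ DE chemistry or by Lexogen's QuantSeq 3′ chemistry. Ages are not given in the sources used here, and cortisol was not analysed here.

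The sources disagreed on the time at which animal 20 was sampled, so its 2 libraries were left out of every comparison and their values are given separately. This left 13 control and 13 heat stress libraries per kit, of which 12 pairs per kit came from the same animal. Counts on genes ranged from 5140595 to 20699030 per Takara library and from 4516761 to 58521751 per Lexogen library. Levels are given as CPM, counts per 1000000 after TMM scaling, and are compared between libraries for one gene, not between genes. A differentially expressed gene (DEG) had an adjusted p under 0.05 in edgeR's quasi-likelihood test, adjusted by Benjamini-Hochberg over all genes tested in that kit. Each log2 fold change compares heat stress with control and is followed by its standard error (SE).

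The glucocorticoid receptor is a ligand-activated transcription factor that waits in the cytosol in a complex with HSP90 and its co-chaperones, binds cortisol and moves to the nucleus. There it induces genes that include its own inhibitor FKBP5 and several anti-inflammatory proteins, and it restrains inflammatory genes. In blood, glucocorticoids are known to raise the number of circulating neutrophils and to lower that of lymphocytes.

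Of the 9 members, 7 were higher after heat stress in Takara libraries and none was lower. Over all 12620 genes tested in that kit, 18.4% were called higher and 10.5% lower. In Lexogen libraries 8 members passed the filter on low counts and 5 of them were higher, none lower, where 5.09% of 11108 genes were called higher and 0.459% lower. DESeq2 on all expressed genes also called no member lower in either kit, and no member with a negative fold change had an unadjusted p under 0.05 in edgeR. Beside 10.5% and 0.459% of all genes called lower, a count of 0 among so few members says nothing about them. The median log2 fold change of the tested members was 1.596 in Takara and 1.24 in Lexogen libraries, against -0.05 and -0.08 for all genes tested. In the fit with the animal as a replicate block, 6 members were called higher in Takara libraries, where 14.9% of genes were, and 2 in Lexogen libraries, where 0.45% were. That fit rests on the 12 pairs, because a calf with a single library in a kit carries no information on the time difference.

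**Figure D1:**
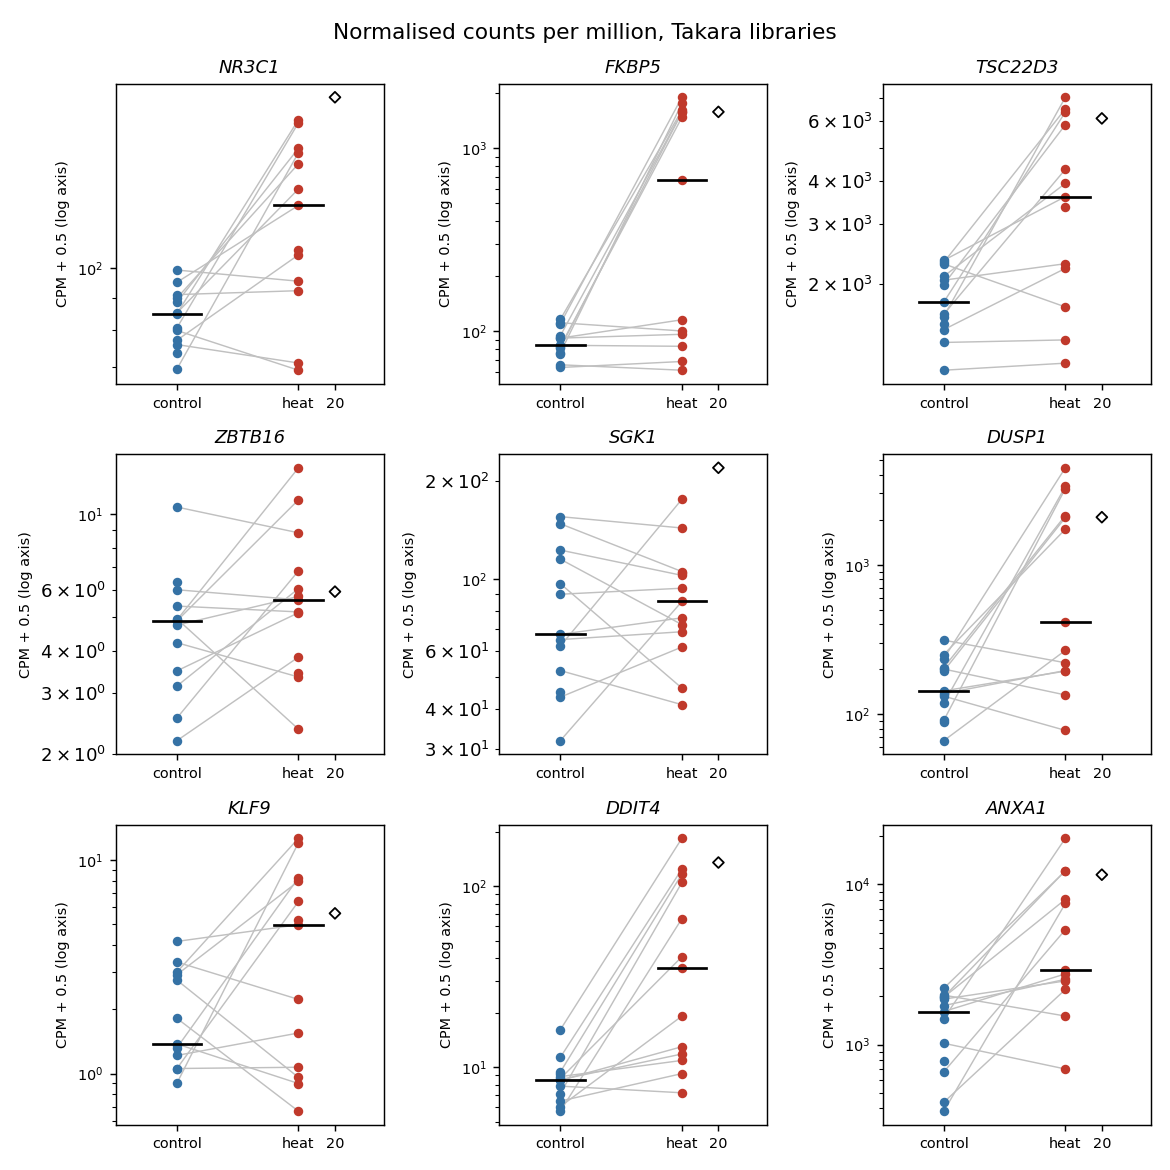
CPM plus 0.5 on a log axis for each gene in Takara libraries, with control in blue, heat stress in red, grey lines joining the libraries of one animal, black bars at the medians and an open diamond for animal 20. FKBP5 after heat stress lies in separate ranges, from 60.7 to 115.1 CPM in 6 libraries and from 670 to 1904 CPM in 7.

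NR3C1 encodes the receptor itself and lies on chromosome 7 of ARS-UCD2.0, from 54344785 to 54491820. In Takara libraries it ranged from 68.9 CPM through a median of 84.4 to 98.9 in controls, and from 68.7 through 125 to 171 after heat stress. The heat stress libraries of 9 calves lay above every control, 3 lay within the control range and that of animal 3 lay just below it. Its log2 fold change was 0.55 (SE 0.13, adjusted p = 0.0029 in edgeR), with 9 of 12 pairs higher after heat. In Lexogen libraries the control values ran from 74.5 through 111 to 278 CPM and the heat stress values from 91.1 through 133 to 197. All 13 heat stress libraries lay within the control range there, whose upper end was set by animal 14. The next control below it, that of animal 12, had 159.9 CPM. Heat stress libraries of animals 12, 19, 23 and 40 lay above that value, at 160.3 to 197.1 CPM. The Lexogen log2 fold change of 0.14 (SE 0.19, adjusted p = 0.792 in edgeR) did not pass the threshold.

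The calves fall into a lower and an upper range of sample numbers, with different animals in each, and in Lexogen libraries the fitted NR3C1 values had opposite signs in them. The log2 fold change was 0.60 (SE 0.21) in the lower range, where all 7 pairs were higher after heat, and -0.49 (SE 0.27) in the upper range, where 1 of 5 pairs was higher. The upper range holds animal 14, whose high control gave its pair a log2 ratio of -1.56. The other pairs there ran from -0.49 to 0.20. The difference between the ranges was -1.15 (SE 0.33, unadjusted p = 0.00159, adjusted p = 0.261 in edgeR), so it did not pass. In Takara libraries the values were 0.67 (SE 0.15) and 0.41 (SE 0.22), with an adjusted p of 0.247 in edgeR in the upper range alone. None of the members passed the test of a difference between the ranges in either kit, where 2.58% of genes in Takara and 0.018% in Lexogen libraries passed. At an unadjusted p under 0.05, edgeR gave 0 members in Takara, where 2091 of 12620 genes had one, and 2 in Lexogen libraries, NR3C1 and TSC22D3, where 883 of 11108 genes did.

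FKBP5, the co-chaperone that lowers the receptor's affinity for its ligand and is itself a receptor target, lies on chromosome 23 from 9555619 to 9677831. Its Takara control values ran from 62.9 CPM through a median of 83.3 to 115.5, a narrow range with a highest value 1.84 times the lowest. After heat stress the lowest value was 60.7, the median 670 and the highest 1904 CPM. Animals 7, 15, 16, 18, 29, 36 and 40 lay above every control, and animals 3, 12, 14, 19, 32 and 41 lay at 115.1 CPM or less, with no library in between. The fitted log2 fold change of 3.29 (SE 0.53, adjusted p = 0.000309 in edgeR) compares mean levels, 87.4 CPM in controls and 854 CPM after heat stress. It is not the average change per calf. With the animal as a replicate block the value was 2.11 (SE 0.63, adjusted p = 0.0261 in edgeR), and 9 of 12 pairs were higher. By pairs, the log2 ratio ran from 3.80 to 4.53 in 6 calves and from -0.15 to 0.33 in the other 6.

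The same calves stood out in Lexogen libraries. FKBP5 ran from 151 CPM through 199 to 302 in controls and from 146 through 324 to 3444 after heat stress. Animals 15, 16, 18, 29, 36 and 40 had 1504 CPM or more, and the next library below them, that of animal 19, had 324, just above the highest control. Animal 7 has no Lexogen heat stress library, and animal 23, which has none in Takara, had 276 CPM. Its fitted log2 fold change was 2.71 (SE 0.46, adjusted p = 0.000912 in edgeR), with 9 of 12 pairs higher. With the animal as a replicate block it was 1.52 (SE 0.46, adjusted p = 0.119 in edgeR), and the call was lost.

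**Figure D2:**
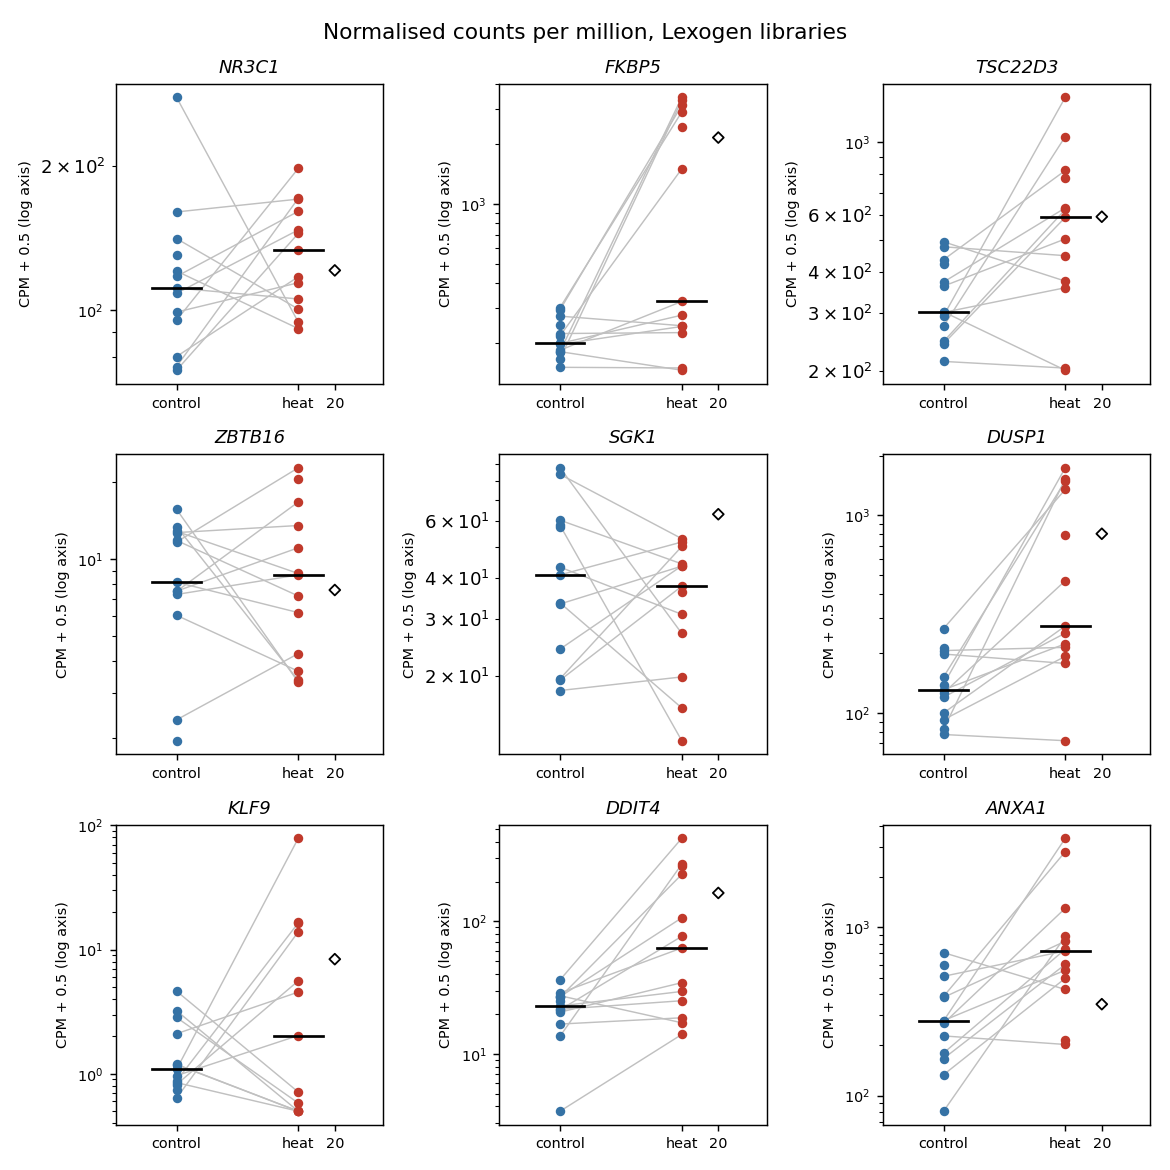
CPM plus 0.5 on a log axis for each gene in Lexogen libraries, drawn as for the Takara libraries, with animal 20 as an open diamond. FKBP5 after heat stress reaches 1504 CPM or more in 6 libraries and stays at 324 CPM or less in 7. All NR3C1 values after heat lie inside the control range, whose upper end is set by the control of animal 14.

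TSC22D3 encodes GILZ, a leucine zipper protein that mediates part of the anti-inflammatory action of glucocorticoids, and lies on chromosome X from 56329795 to 56396372. In Takara libraries it ran from 1116 CPM through 1767 to 2345 in controls and from 1171 through 3605 to 7051 after heat stress. The 7 calves with high FKBP5 and animal 14 lay above every control, and the other 5 lay within the control range. Its log2 fold change was 1.08 (SE 0.24, adjusted p = 0.00195 in edgeR), with 11 of 12 pairs higher. In Lexogen libraries it was 0.84 (SE 0.23, adjusted p = 0.0257 in edgeR), with 8 of 12 pairs higher, and with the animal as a replicate block 0.66 (SE 0.24, adjusted p = 0.182 in edgeR). There animals 12 and 19 lay above every control along with the 6 calves with high FKBP5. Within the upper range of sample numbers the Lexogen value was 0.32 (SE 0.36).

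DUSP1, a phosphatase that switches off MAP kinases, lies on chromosome 20 from 4540528 to 4543611. Takara control libraries held 65.8 CPM at the lowest, 143 at the median and 312 at the highest, and heat stress libraries 77.3, 413 and 4454. The 7 calves above every control were those with high FKBP5, although animal 29 stood at 413 CPM and the other 6 of them at 1728 or more. DUSP1 had a log2 fold change of 3.09 (SE 0.55, adjusted p = 0.000457 in edgeR), with 9 of 12 pairs higher. In Lexogen libraries it was 2.21 (SE 0.39, adjusted p = 0.00104 in edgeR), with 10 of 12 pairs higher. There animal 32 joined the 6 calves with high FKBP5 above every control.

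DDIT4 encodes an inhibitor of mTORC1 signalling and lies on chromosome 28 from 28323892 to 28325923. In Takara libraries it ran from 5.21 CPM through 8.02 to 15.6 in controls and from 6.72 through 34.9 to 183 after heat stress. Animal 19 and the 7 calves with high FKBP5 lay above every control, and animal 19 was the lowest of these 8 at 18.6 CPM. DDIT4 had a log2 fold change of 2.78 (SE 0.46, adjusted p = 0.000318 in edgeR), with 11 of 12 pairs higher. In Lexogen libraries it was 2.45 (SE 0.47, adjusted p = 0.0016 in edgeR), also with 11 of 12 pairs higher, and with the animal as a replicate block 1.54 (SE 0.39, adjusted p = 0.0608 in edgeR), which ended the call. The Lexogen heat stress libraries above every control were those of animal 12 and the same 6 calves.

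ANXA1, annexin A1, is a protein of neutrophils and monocytes that limits leukocyte migration, and its gene lies on chromosome 8 from 49321701 to 49339582. Takara controls ran from 384 CPM through 1609 to 2246 and heat stress libraries from 704 through 2920 to 19399. Here 10 calves lay above every control, the 7 with high FKBP5 and animals 12, 14 and 19, and the remaining 3 lay within the control range. For ANXA1 the log2 fold change was 2.13 (SE 0.42, adjusted p = 0.000762 in edgeR), with 10 of 12 pairs higher. The Lexogen value was 1.65 (SE 0.38, adjusted p = 0.00616 in edgeR), again with 10 of 12 pairs higher. In that kit animals 12 and 19 and 5 of the 6 calves with high FKBP5 lay above every control, while animal 15, with high FKBP5, stood at 214 CPM, inside the control range of 80.2 to 706. The kits differ on this sample, since its Takara library had 8064 CPM, above every Takara control. Its Lexogen library was the deepest, with 58521751 counts on genes. ANXA1 and DUSP1 were the 2 members still called in Lexogen libraries with the animal as a replicate block.

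KLF9, a zinc finger transcription factor that responds directly to glucocorticoids, lies on chromosome 8 from 46512457 to 46611498 and was close to the detection limit. Takara controls ran from 0.401 CPM through 0.877 to 3.65 and heat stress libraries from 0.167 through 4.47 to 12.1. The 7 calves with high FKBP5 lay above every control and 2 lay below the lowest one. The fitted log2 fold change of 1.596 (SE 0.53, adjusted p = 0.0257 in edgeR) fell to 0.93 (SE 0.60, adjusted p = 0.256) with the animal as a replicate block, and it was 1.18 (SE 0.47, adjusted p = 0.0604) with total counts as library size. By range of sample numbers it was 2.66 (SE 0.62) in the lower and 0.86 (SE 0.72) in the upper. No Lexogen fold change is given from the main test, since the gene failed the filter, with 2 to 40 counts per control library and 0 to 761 per heat stress library. It was at 0 in the heat stress libraries of animals 3, 12, 19 and 23, where 3 counts, the limit that 0 allows, correspond to 0.277 to 0.402 CPM, and that limit covers counting error only. Animals 15, 16, 18, 29 and 40 lay above the highest control, at 5.10 to 78.1 CPM. KLF9 overlaps SMC5 in the annotation and 89.3% of its stranded Takara reads lay on its own strand, so part of its unstranded count may belong to a neighbour.

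ZBTB16 and SGK1 did not pass the threshold in either kit. ZBTB16, a transcription factor known to be strongly induced by glucocorticoids in many tissues, ran from 1.68 CPM through 4.38 to 10.0 in Takara controls and from 1.86 through 5.13 to 13.2 after heat stress. Of its 13 heat stress libraries 11 lay within the control range, and those of animals 15 and 16 lay above it. The log2 fold changes were 0.40 (SE 0.27, adjusted p = 0.274 in edgeR) in Takara and 0.14 (SE 0.42, adjusted p = 0.919) in Lexogen libraries. SGK1, a kinase that regulates ion transport, ran from 31.4 CPM through 67.1 to 155 in Takara controls and from 40.6 through 84.8 to 175 after heat stress. All heat stress libraries but that of animal 18 lay within the control range, and 6 of 12 pairs were higher. Its log2 fold changes were 0.10 (SE 0.24, adjusted p = 0.774) in Takara and -0.32 (SE 0.28, adjusted p = 0.628) in Lexogen libraries, and the Takara value became -0.18 with total counts as library size. SGK1 overlaps annotated genes, with 94.6% of stranded reads on its own strand in Takara and 92.4% in Lexogen libraries.

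**Figure D3:**
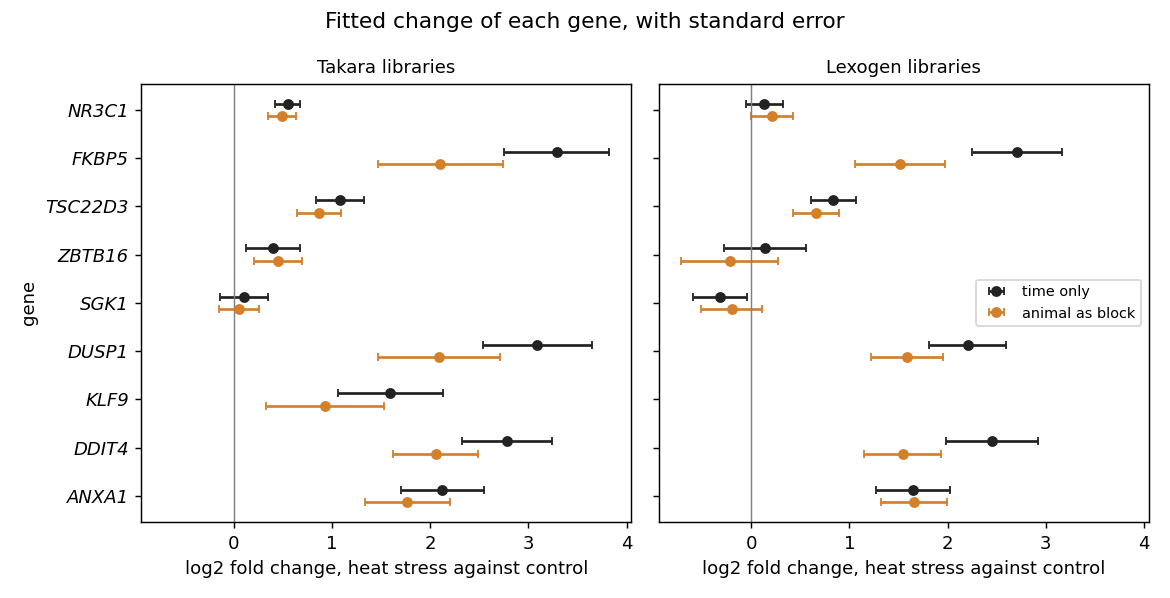
Log2 fold change of each gene with its SE as bars, in black from the fit on time only and in orange with the animal as a block, for Takara libraries on the left and Lexogen libraries on the right; KLF9 was not tested in Lexogen libraries. FKBP5 moves from 3.29 to 2.11 in Takara and from 2.71 to 1.52 in Lexogen libraries between the fits.

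The calves that rose were partly the same from member to member and partly not. In Takara libraries the pairs of animals 7, 15, 16, 18, 36 and 40 had 5 to 8 of the 9 members more than 2-fold higher after heat, while those of animals 3, 12, 14 and 41 had none. Animal 19 had 1 such member, DDIT4, and animal 32 had 3, SGK1, DUSP1 and ANXA1. In Lexogen libraries animals 16, 18, 29, 36 and 40 had 5 to 7, and animals 19 and 23, whose FKBP5 was 324 and 276 CPM, had 4 and 3. The calves with high FKBP5 came from both ranges of sample numbers. In the upper range alone 4 members were called higher in Takara libraries, FKBP5, DUSP1, DDIT4 and ANXA1, against 4.8% of genes. None was called in Lexogen libraries, where 0.0% of genes were. The Lexogen values in that range for FKBP5, DUSP1 and DDIT4 were 2.56 (SE 0.67), 2.22 (SE 0.62) and 2.98 (SE 0.83). Over both ranges they were 2.71, 2.21 and 2.45. TSC22D3 and ANXA1 had 0.32 (SE 0.36) and 0.94 (SE 0.45), against 0.84 and 1.65 over both ranges.

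**Figure D4:**
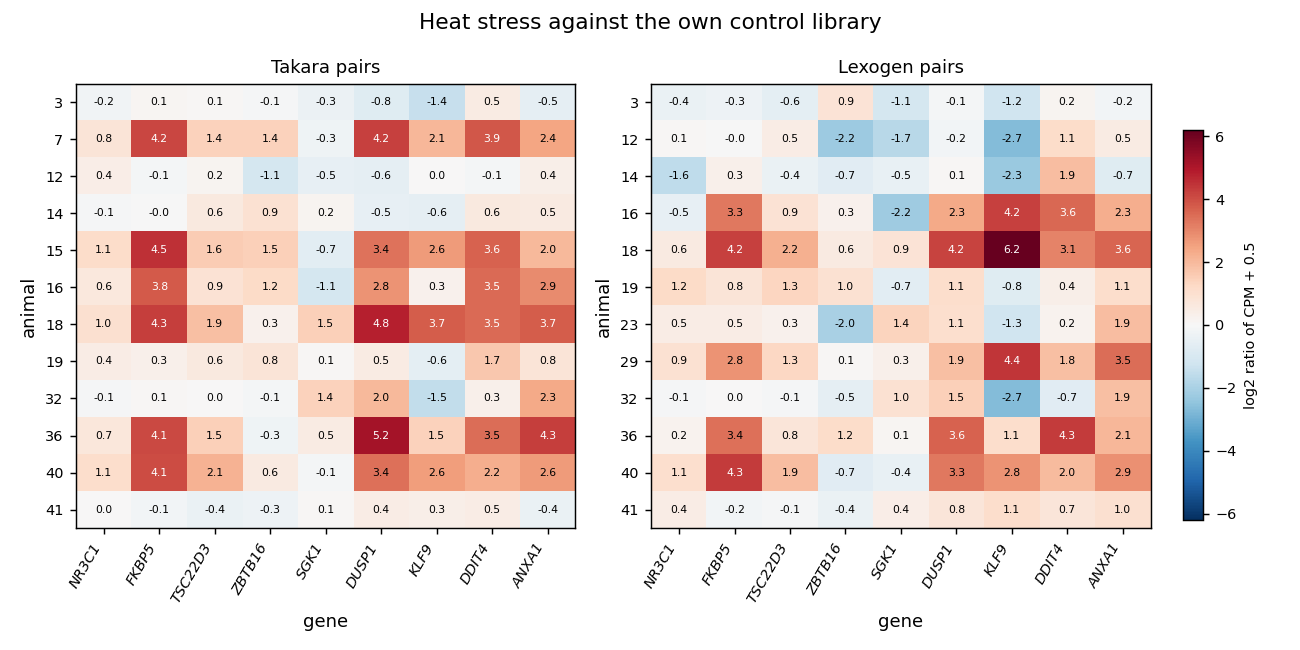
Log2 ratio of CPM plus 0.5 between the heat stress and the control library of each animal, for each gene, with red for higher after heat and blue for lower. FKBP5 ratios in Takara pairs are 3.80 or more in 6 animals and 0.33 or less in the other 6, and the rows of the 6 with high ratios are also red for DUSP1, DDIT4 and ANXA1.

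The change did not differ detectably between the kits. In 24 RNA samples with a library of each kit, 0.0% of 13354 genes passed edgeR's test of the difference, 526 had an unadjusted p under 0.05, none of them a member, and DESeq2 called 1 gene. The Takara change minus the Lexogen change was 0.05 on the log2 scale (SE 0.11) for FKBP5, 0.04 (SE 0.19) for DUSP1 and 0.21 (SE 0.17) for NR3C1. SGK1 was furthest from 0 for its SE, at 0.36 (SE 0.20, unadjusted p = 0.0757 in edgeR and 0.043 in DESeq2), and KLF9 had -0.50 with the largest SE, 1.02.

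Animal 20 is given as heat stress by the sample labels, while the study's design table lists the only unpaired calf as control. Its FKBP5 values were 1584 CPM in the Takara and 2161 CPM in the Lexogen library, above every control of the kit. With it counted as heat stress, 7 members in Takara and 5 in Lexogen libraries were called higher, against 2528 of 12652 genes and 729 of 11222 genes (6.5%). With it counted as control no member was called in either kit, nor was almost any other gene (0.0% in Takara and 0.0178% in Lexogen libraries), so this says nothing about the members.

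Genes that handle the receptor were examined as a list of 12, of which 9 were tested in each kit. In Takara libraries 4 of the 9 were higher, where 18.4% of all genes were. A single one was lower, a share near the 10.5% of all genes called lower. This was the co-activator NCOA1 at -0.36 (SE 0.11, adjusted p = 0.0177 in edgeR), a call lost with the animal as a replicate block (-0.34, adjusted p = 0.0518). That fit left 3 higher, against 14.9% of genes, without FKBP4, which went from 0.51 (adjusted p = 0.0389) to 0.47 (adjusted p = 0.103). In Lexogen libraries 1 of the 9 was higher, where 5.09% of all genes were. HSP90AA1, the inducible form of the chaperone that holds the receptor, was higher in both kits, with log2 fold changes of 1.27 (SE 0.23, adjusted p = 0.000521 in edgeR) and 0.94 (SE 0.18, adjusted p = 0.00198), and the Lexogen call was lost with the animal as a replicate block (0.78, adjusted p = 0.0639). The list's median log2 fold change was 0.38 in Takara and 0.23 in Lexogen libraries. NR3C2, the mineralocorticoid receptor, had no count in 23 of 26 Takara and 23 of 26 Lexogen libraries.

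Of 25 further genes that glucocorticoids are known to induce, 19 of 25 tested were higher in Takara and 11 of 21 tested in Lexogen libraries. Of all genes 18.4% and 5.09% were called higher. None of the list was lower, where 10.5% and 0.459% of all genes were. Like the members and the other lists, this list was chosen with earlier results of these data known, so its counts are descriptive only. With the animal as a replicate block the counts were 16 and 3, the latter CXCR4, TXNIP and CRISPLD2, against 14.9% and 0.45% of genes. The list's median log2 fold change was 1.52 in Takara and 1.31 in Lexogen libraries. IL1R2, the decoy receptor for interleukin-1, had 28.1 CPM at the control median and 1188 at the heat stress median in Takara libraries, a log2 fold change of 6.29 (SE 0.95). In Lexogen libraries its medians were 9.57 and 37.8 CPM, much closer together than the fitted 5.72 (SE 0.90) implies, and with the animal as a replicate block the values were 4.28 (adjusted p = 0.016 in edgeR) in Takara and 3.31 (adjusted p = 0.161) in Lexogen libraries. GLUL, glutamine synthetase, had 3.01 and 2.14, with Lexogen medians of 93.7 and 133 CPM and 1.299 (adjusted p = 0.156 in edgeR) there with the animal as a replicate block. IRS2, an insulin receptor substrate, had 2.84 and 3.00, with Lexogen medians of 34.6 and 77.6 CPM and 1.82 (adjusted p = 0.0596) in that fit. For the transcription factor CEBPD the values were 2.42 and 2.37, with medians of 139 and 311 CPM in Lexogen libraries and 1.58 (adjusted p = 0.0779) in that fit, and for ALOX5AP, which serves leukotriene synthesis, 2.27 and 1.96, with medians of 30.5 and 85.7 CPM and 1.20 (adjusted p = 0.355). For these 4 genes in Lexogen libraries the fitted values exceed the log2 ratio of the medians. The fit on time only compares mean levels and not medians, so a few high libraries can raise it more than they raise a median. The secreted protein CRISPLD2 had 2.31 and 2.10. PER1, a clock gene that glucocorticoids induce, had 0.61 (adjusted p = 0.170 in edgeR) in Takara libraries and was not called.

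Of 12 genes that glucocorticoids are known to repress, none was called lower among the 6 tested in Takara and the 5 tested in Lexogen libraries by edgeR. With 10.5% and 0.459% of all genes called lower, a count of 0 among so few genes says nothing about the list. Interleukin-1 beta, IL1B, had 0.13 (adjusted p = 0.748) in Takara and -0.01 (adjusted p = 0.992) in Lexogen libraries. The remaining 6 genes in Takara and 7 in Lexogen libraries were too low to test.

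Neutrophil markers moved with the members. Of 8 markers, 7 were higher in Takara and 5 of 7 tested in Lexogen libraries, where 18.4% and 5.09% of all genes were. With the animal as a replicate block the counts were 7 and 0, against 14.9% and 0.45% of genes. At 0.45% of genes, the count of 0 in Lexogen libraries says nothing about the list. The summed level of the 8 markers in Takara libraries ran from 4270 CPM through 11480 to 19687 in controls. After heat stress it ran from 3720 through 42303 to 109008. The most abundant was S100A12 and none was at 0 in every library. The 8 calves above every control were the 7 with high FKBP5 and animal 14, whose FKBP5 was 82.3 CPM. In Lexogen libraries the sum ran from 1180 through 3577 to 6938 and from 1626 through 10448 to 32496, and animals 12 and 14 joined the 6 calves with high FKBP5 above every control. The part of this shift in the members' values was not tested, and in RNA from mixed blood cells more cells of a type cannot be told apart from more RNA per cell.

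**Figure D5:**
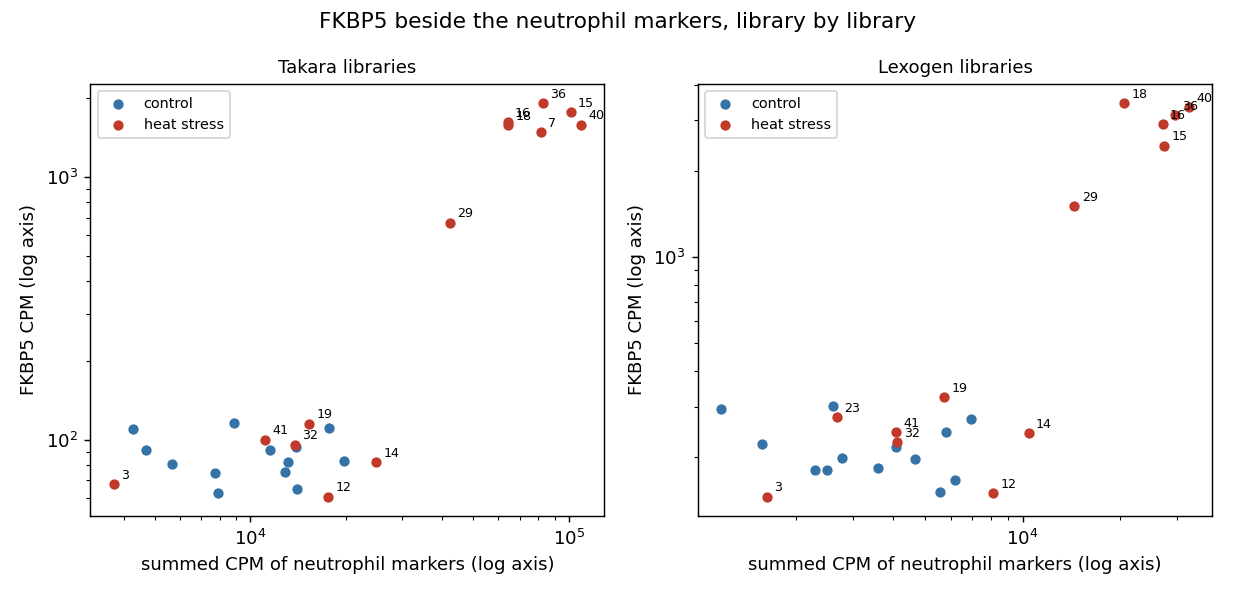
FKBP5 CPM against the summed CPM of 8 neutrophil markers on log axes, one point per library, with control in blue and heat stress in red and labelled by animal. The libraries with FKBP5 at 670 CPM or more in Takara or 1504 CPM or more in Lexogen also have the highest marker sums, while animal 14 has a raised sum with FKBP5 in the control range.

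T and B cell markers were called lower or not at all. Of 7 T cell markers, CD3D, CD3E and CD3G were lower in Takara libraries, where 10.5% of all genes were. None was called in Lexogen libraries, where 0.459% of genes were called lower, so that count says nothing about the list. The summed Takara level of the T cell markers had a median of 1172 CPM in controls and 864 after heat stress, with CD3D the most abundant. None of 5 B cell markers was called in either kit, and beside 10.5% and 0.459% of all genes called lower this says nothing about the list. With the animal as a replicate block CD79B and PAX5 were called lower in Takara libraries, where 1285 of 12620 genes were. The sum of the B cell markers had Takara medians of 525 and 415 CPM. Of 5 monocyte markers, CD68 and VCAN were higher in Takara libraries, where 18.4% of all genes were. The monocyte sum had Takara medians of 332 and 462 CPM. Both calls were lost with the animal as a replicate block, with log2 fold changes going from 0.76 to 0.81 (adjusted p = 0.0523) for CD68 and from 0.60 to 0.37 (adjusted p = 0.146) for VCAN. Of 5 natural killer and cytotoxic markers 1, NCR1, was higher in both kits, a share in Takara libraries near the 18.4% of all genes, and its Lexogen call was lost in that fit, from 1.55 (adjusted p = 0.0328) to 1.24 (adjusted p = 0.263). Eosinophil, platelet and erythroid markers had no call, but so few were tested that this says nothing about these lists. Takara medians were 90.9 and 81.9 CPM for the eosinophil gene CCR3, 2375 and 2145 for platelets and 1701 and 1133 for erythroid genes, led by HBB. HBA1 was at 0 in every library of both kits, and EPX, PRG2 and SIGLEC8 of the eosinophil list were not analysed here. The part of these shifts in the members' values was not tested.

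The genes most like NR3C1 across Takara libraries were ACAP2, ZNF326 and CDC37L1, ranked by Pearson's r of log2 CPM among 9664 genes after centring within time and range of sample numbers. Over 26 libraries r was 0.965, 0.955 and 0.943, and in the 13 controls 0.811, 0.791 and 0.6998. In 26 Lexogen libraries the values were 0.355, 0.317 and 0.437. All these values share library and depth.

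The scaling of libraries mattered for all genes together. In Takara libraries 2325 genes were called higher and 1321 lower, and with total counts as library size 1303 and 2185. The median log2 fold change of all genes moved from -0.05 to -0.27 under that scaling, so each member's value fell as well, to 2.81 for FKBP5 and 0.25 for NR3C1, and both stayed called.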

How the data were processed

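The authors trimmed reads with Trimmomatic 0.39, checked them with FastQC 0.11.9 and MultiQC 1.14, and mapped and counted them per gene with STAR 2.7.10b on ARS-UCD2.0; the deposited values are raw counts, not normalized. The unstranded count column was used here, since the column the authors analysed is not given in the sources used here. Genes passing filterByExpr were tested with edgeR 4.0.16 in R 4.3.3 (TMM, quasi-likelihood, time as the only term, each kit alone); DESeq2 1.42.0 was an alternative. Tests were checked on simulated data with the same dispersion for all genes and no differences between animals beyond library size. That check does not cover heat stress libraries that split into separate ranges, as those of FKBP5 did. Per-animal ratios used CPM plus 0.5. Positions came from the annotation of the same build, where 30271 gene names matched. Pairs are libraries of the same animal: the correlation of their deviations from the group means had a median of 0.234 in Takara and 0.013 in Lexogen libraries, over 0.1 in 11 and 2 of 12 pairs. The members and lists were chosen with earlier results of these data known. All members are named, and of each list at most 6 genes called in both kits with the same sign, by size in Takara libraries; NCOA1, FKBP4, PER1, CXCR4, TXNIP, NR3C2, IL1B and the single markers were named after their values were seen. A result of the list of repressed genes is not reported here. Reads carry no molecular identifiers. The median SE over genes was 0.18 in Takara and 0.42 in Lexogen libraries.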

Additional observations from a re-analysis of the deposited data

Results flagged for a closer look

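The libraries of animal 20 were in no comparison and held members above the highest control library of the kit. In the Takara library 8 of 9 members were above it, with NR3C1 at 185 CPM, FKBP5 at 1584, TSC22D3 at 6114, SGK1 at 219, DUSP1 at 2080, KLF9 at 5.12, DDIT4 at 135 and ANXA1 at 11495. In the Lexogen library 5 were above it, with FKBP5 at 2161 CPM, TSC22D3 at 590.3, DUSP1 at 804, KLF9 at 7.87 and DDIT4 at 163. The sources disagree on when this calf was sampled, and the question was not tested.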

How the results depend on the processing

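Over 9 members and 11 alternatives in Takara libraries, 85 of 99 fold changes kept their direction and their side of the threshold, and over 8 members and 12 alternatives in Lexogen libraries 79 of 96 did. With the animal as a replicate block, members called higher were 6 in Takara and 2 in Lexogen libraries, list genes 3 higher in Lexogen and 0 lower in Takara, all Lexogen genes 50 higher and 16 lower, and ZBTB16 in Lexogen was -0.22; beyond these and the values given beside the results, this pairing changed no member's call. With animal 20 as control 0 members, 0 list genes and 0 Takara genes were called in either direction, 2 Lexogen genes were higher and 0 lower, and SGK1 in Takara was -0.064; with it as heat stress 92 Lexogen genes were lower. In the upper range of sample numbers alone, which has fewer libraries, 4 members, 9 list genes and 608 genes were higher and 323 lower in Takara libraries. In Lexogen libraries 0 members, 0 list genes and 0 genes were called there in either direction, and NR3C1 was -0.49. The Lexogen values of FKBP5, DUSP1 and DDIT4 were 2.56, 2.22 and 2.98 in that range, and those of TSC22D3 and ANXA1 0.32 and 0.94. In the lower range alone 751 Takara genes and 23 Lexogen genes were lower, 0 list genes were lower in Takara libraries and ZBTB16 in Lexogen was -0.027. With total counts as library size 1303 Takara genes were higher and 2185 lower, 3 list genes were lower and SGK1 in Takara was -0.18. With all expressed genes, which tests more genes, 3604 Takara and 1701 Lexogen genes were higher and 1572 Lexogen genes lower, and DESeq2 on them called 190 Lexogen genes lower and, like edgeR, KLF9 higher in Lexogen libraries (3.27 and 3.13). Without the deepest Lexogen library ZBTB16 was -0.016. Except where fewer samples or more genes enter, the cause was not tested. Low counts limit KLF9 in both kits.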
